A study of Mus musculus with 4 samples.

Results

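The genes described here encode the Janus kinases and the STAT transcription factors: 4 kinase genes (Jak1, Jak2, Jak3 and Tyk2) and 5 STAT genes (Stat3, Stat4, Stat5a, Stat5b and Stat6), 9 of the 21887 protein-coding genes of the nuclear mouse genome in RefSeq. A peak was assigned to a gene when its midpoint lay within the gene body or up to 50 kb to either side. By this rule the genes held 15 of 4246 peaks in the NKT list and 19 of 5198 peaks in the PLZF-transgenic list. The study mapped binding of PLZF, a BTB zinc finger transcription factor that directs the innate-like program of natural killer T cells, by capturing biotin-tagged chromatin complexes on streptavidin beads and sequencing the DNA (ChIP-seq). Both mouse lines had a C57BL/6 background and were transgenic for PLZF and for BirA, the bacterial ligase that attaches biotin. The NKT library came from thymocytes of PLZF tg/BirA tg/Valpha14 tg mice, in which Valpha14 is the alpha chain that natural killer T cells use in their receptor, and the PLZF-transgenic library came from thymocytes of PLZF tg/BirA tg mice. The labels give neither a sort of natural killer T cells, nor the age of the mice, nor the promoters that drive the transgenes.

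Each population had 1 ChIP library, so no value below has a replicate check and no test between populations was possible. A bead pull-down from animals lacking transgenic PLZF was not analysed here, so a peak need not be a PLZF site. Peaks carry no expression values, so the labelled cell type could not be checked against its markers. The score of a peak is the value that the authors deposited with it, and its read depth is unknown. Scores rank peaks within 1 list, and a percentile below is the percentile rank of a score among all peaks of the same list. Side by side, scores of different libraries show no change. A site missing from a list had no peak above that list's lowest score, 50.02 in the NKT list and 50.03 in the PLZF-transgenic list, which does not show that signal was absent.

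Janus kinases sit on the inner ends of cytokine receptors and, once a cytokine has joined the receptor chains, phosphorylate the receptor and the STAT proteins that dock on it. Phosphorylated STATs pair, enter the nucleus and bind DNA. JAK1 and JAK3 serve receptors with the common gamma chain, such as those for IL-2, IL-4, IL-7 and IL-15, while JAK2 and TYK2 serve the IL-12 receptor. In T cells STAT4 relays IL-12, STAT6 relays IL-4, STAT5A and STAT5B relay IL-2, IL-7 and IL-15, and STAT3 relays IL-6 and IL-21. Developing natural killer T cells depend on IL-15, and their subsets differ in production of IL-4 and interferon gamma.

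Peaks covered annotated promoters at Stat3 and Stat6, and the RefSeq sequences of these promoters (GRCm38.p6, the assembly that mm10 names) are shown because they are the only promoters of the 9 genes that a peak overlapped. Each runs 5′ to 3′ on the strand of the gene, from 250 bases before the annotated start site to 50 bases after it. Capitals mark matches to the motifs searched on both strands, TTCNNNGAA (the gamma-activated site that STAT dimers bind), CCGGAA (ETS factors) and TGTGGT (RUNX factors). None of these letters occurs in the Stat3 window.
Stat3 promoter, chr11:100939491-100939790, minus strand: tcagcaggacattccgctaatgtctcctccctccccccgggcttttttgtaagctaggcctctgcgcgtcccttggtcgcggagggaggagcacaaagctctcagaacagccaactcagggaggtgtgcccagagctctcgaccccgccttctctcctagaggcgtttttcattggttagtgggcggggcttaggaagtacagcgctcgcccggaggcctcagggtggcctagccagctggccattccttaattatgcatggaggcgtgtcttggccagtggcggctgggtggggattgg
Stat6 promoter, chr10:127642736-127643035, plus strand: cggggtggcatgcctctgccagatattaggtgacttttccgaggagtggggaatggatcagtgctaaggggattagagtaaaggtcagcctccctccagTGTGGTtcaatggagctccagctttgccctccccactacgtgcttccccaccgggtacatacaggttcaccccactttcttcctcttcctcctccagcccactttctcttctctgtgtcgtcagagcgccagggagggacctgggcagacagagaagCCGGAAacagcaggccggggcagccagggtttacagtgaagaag
The Stat3 window was the promoter listed in both libraries, with 279 of its bases under the NKT peak and all 300 under the PLZF-transgenic peak. The Stat6 window had 0 bases under an NKT peak and 217 under a PLZF-transgenic peak. In the Stat6 window the RUNX letters began at position -151 and the ETS letters at position 7, counted from the start site as position 1. Among 32851 promoter windows of the same length, 16.8% held TGTGGT, 14.9% held CCGGAA and 8.30% held TTCNNNGAA. The windows of the other 7 genes included one of Stat5b with CCGGAA and one of Stat5a with TGTGGT, each on the strand opposite to the gene. Neither window was under a peak in either list, and no window of the 9 genes held TTCNNNGAA. A match describes the letters of the window and does not mark a bound site.

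By the 50 kb rule, 6 of the 9 JAK and STAT genes had a peak in both lists. By gene body alone, and by nearest gene, 4 of 9 did. The NKT list placed a peak within 50 kb of 7 of the 9 genes, against 26.3% of all protein-coding genes, and the PLZF-transgenic list placed one near 8 of 9, against 30.3%. Both lists had a peak near 6 genes (20.6% of all genes), namely Jak1, Stat3, Stat4, Stat5a, Stat5b and Stat6. In the NKT list alone there was a peak for Jak3, and in the PLZF-transgenic list alone for Jak2 and Tyk2. Each of the 9 genes thus had a peak in at least 1 list, against 36.0% of all genes. The 9 genes were chosen with earlier results of these data known, so these shares are no independent finding. By family, 5 of 5 STAT genes were near a peak in each list. Of the 4 kinase genes, 2 were near a peak in the NKT list and 3 in the PLZF-transgenic list. Where a peak goes to its nearest gene alone, 4 of 5 STAT genes had one in each list. Stat6 then lacked one in the NKT list and Stat5a in the PLZF-transgenic list. No share of all genes was computed by nearest gene, or for both lists by gene body. Windows of the 9 genes were longer than usual, with a median of 152.8 kb (range 114.2 to 220.1 kb) against 117.2 kb over all protein-coding genes, and those of Stat5b, Stat5a and Stat3 overlap one another; the part of window length in these counts was not tested. Counted over the merged windows, which span 1.21 Mb, there were 12.4 NKT peaks and 15.7 PLZF-transgenic peaks per Mb. The merged windows of all protein-coding genes had 2.19 NKT peaks and 2.75 PLZF-transgenic peaks per Mb. Within the gene body itself a midpoint fell at 5 of 9 genes in the NKT list (7.18% of all genes) and at 6 of 9 in the PLZF-transgenic list (8.37%).

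**Figure D1:**
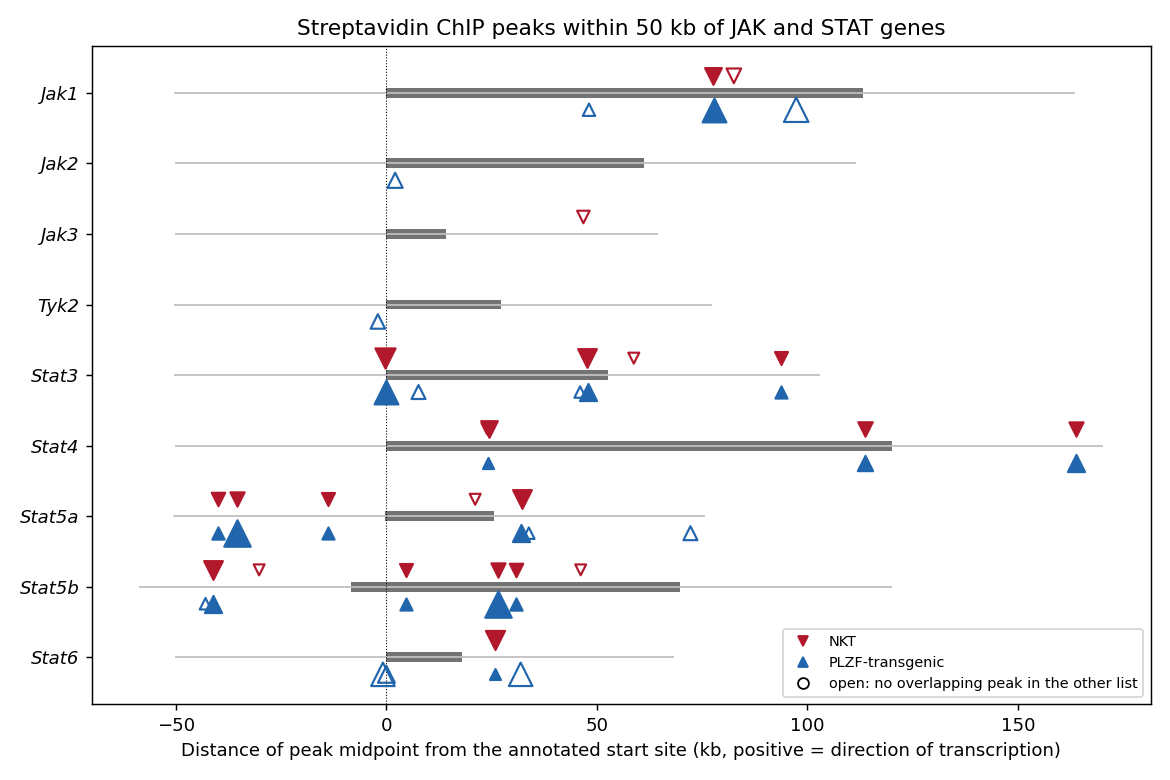
Peaks around each of the 9 genes, by distance of the peak midpoint from an annotated start site (kb, positive in the direction of transcription); grey bars are gene bodies, thin lines the 50 kb flanks, red triangles above the line NKT peaks and blue triangles below it PLZF-transgenic peaks, with marker area growing with the score and open markers for peaks without an overlapping peak in the other list. All 5 STAT genes have peaks in both lists, and Jak2, Jak3 and Tyk2 each have a single peak in a single list. The weaker of the neighbouring NKT peaks inside Stat4 (score 53.1) is drawn within the marker of the stronger.

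Among the kinases, Jak1 was the gene with peaks in both lists. It encodes the kinase shared by the gamma chain, interferon and gp130 receptor families and lies on chromosome 4 (101151974 to 101265282, minus strand). A site 77.7 kb into the gene had a score of 142.7 in the NKT list (101187337 to 101187798) and of 301.5 in the PLZF-transgenic list (101187239 to 101187773), the 80.1 and 87.0 percentiles of these lists, with midpoints 61.5 bp apart. The NKT list held a second Jak1 peak of score 106.0 (101182583 to 101182797, 68.2 percentile) that no PLZF-transgenic peak overlapped. The nearest PLZF-transgenic peak was 4.82 kb away. Of NKT peaks within 5 percentile points of it, 78.5% overlapped a PLZF-transgenic peak. The PLZF-transgenic list held 2 further peaks that no NKT peak overlapped. The stronger of these, with a score of 320.1 (88.2 percentile), lay 97.3 kb into the gene (101167547 to 101168231), 14.8 kb from the nearest NKT peak. Of PLZF-transgenic peaks within 5 percentile points of it, 85.9% overlapped an NKT peak. The weaker had a score of 71.0 and lay 48.1 kb into the gene. None of the Jak1 peaks lay near the annotated start site, and exons and introns were not told apart.

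The other kinase genes had 1 peak each. Jak2, the kinase of the IL-12 and growth hormone type receptors, had a peak on chromosome 19 in the PLZF-transgenic list with a score of 113.4 (29253710 to 29254111), inside the gene and 2.11 kb past its start site, and the nearest NKT peak was 147.4 kb away. Tyk2, the partner kinase at the IL-12 and type I interferon receptors, had a peak on chromosome 9 in the PLZF-transgenic list with a score of 103.1 (21133075 to 21133458), 1.99 kb before its start site, and the nearest NKT peak was 154.9 kb away. Both scores lay near the middle of the PLZF-transgenic list, at the 51.3 and 46.2 percentiles. Peaks of such rank were often unshared in the whole list: 40.3% of those within 5 points of the Jak2 peak and 33.8% of those within 5 points of the Tyk2 peak overlapped an NKT peak. Jak3, the kinase that binds the common gamma chain itself, had an NKT peak of score 73.3 on chromosome 8 (71723080 to 71723294). It lay 32.6 kb past the end of Jak3 and inside Fcho1, an endocytosis gene, so by nearest gene it belongs to Fcho1. The nearest PLZF-transgenic peak was 131.4 kb away. This NKT peak stood at the 49.5 percentile, and 56.6% of NKT peaks within 5 points of it overlapped a PLZF-transgenic peak.

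Stat5b, Stat5a and Stat3 are neighbours on chromosome 11 and held 7 peaks in each list, of which 5 overlapped a peak of the other list. Stat5b and Stat5a encode closely related STAT5 proteins and are transcribed away from each other, and Stat3 follows on the minus strand. The counts of the 3 genes share peaks: 5 NKT and 6 PLZF-transgenic peaks lay in the windows of more than 1 of the 3 genes. The strongest PLZF-transgenic peak at any of the 9 genes was inside Stat5b (100823660 to 100824672), 1013 bp wide with a score of 376.4 (91.2 percentile), 1.60 kb before the more downstream of 2 annotated start sites. At this place the NKT list had a peak 407 bp wide (100823964 to 100824370) with a score of 98.1 (64.3 percentile), and the midpoints lay 1 bp apart. It was the 1 PLZF-transgenic peak at the 9 genes in the top 10% of its list, and the NKT list had 0 peaks there in its top 10%. A pair of weaker Stat5b sites was listed in both libraries, with NKT scores of 86.2 (100819603 to 100819860) and 79.2 (100845714 to 100845985) and PLZF-transgenic scores of 69.8 and 67.1. Each midpoint differed by at most 24.5 bp between lists. A further NKT peak of score 51.0 (100804346 to 100804482), near the lowest score of the list, had no PLZF-transgenic counterpart. The body of Stat5a held 1 NKT peak of score 52.0 (100880690 to 100880844) and no PLZF-transgenic peak, so the other Stat5a peaks by the 50 kb rule belong to the bodies of Stat5b and Stat3.

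Stat3 had its highest-scoring peak of both lists at the promoter printed above. The NKT peak (100939512 to 100939975) had a score of 211.6, the highest NKT score at the 9 genes, and the PLZF-transgenic peak (100939446 to 100939966) a score of 302.1, at the 88.9 and 87.0 percentiles. Their midpoints lay 0.204 kb and 0.166 kb before the start site and 37.5 bp from each other, over the noncoding gene Gm46295 as well. A second shared site lay toward the far end of Stat3, 47.7 kb past the start site, with a score of 181.1 in the NKT list (100891631 to 100892002) and of 148.9 in the PLZF-transgenic list (100891436 to 100892023). The PLZF-transgenic list alone had peaks of score 94.2 (100931687 to 100932081) and 58.8 (100893363 to 100893654) inside the gene. Promoters of this kind were seldom covered: NKT peaks overlapped 1.86% and PLZF-transgenic peaks 2.60% of the 27025 genes in the promoter table, against 1 and 2 of the 9 genes. The edge of the 50 kb rule runs through this cluster. The outermost peak inside it was 46.7 kb from Stat5a (the PLZF-transgenic peak of score 94.2), and the first outside was the Stat3 promoter site, 54.5 kb from Stat5a in the PLZF-transgenic list and 54.6 kb in the NKT list.

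**Figure D2:**
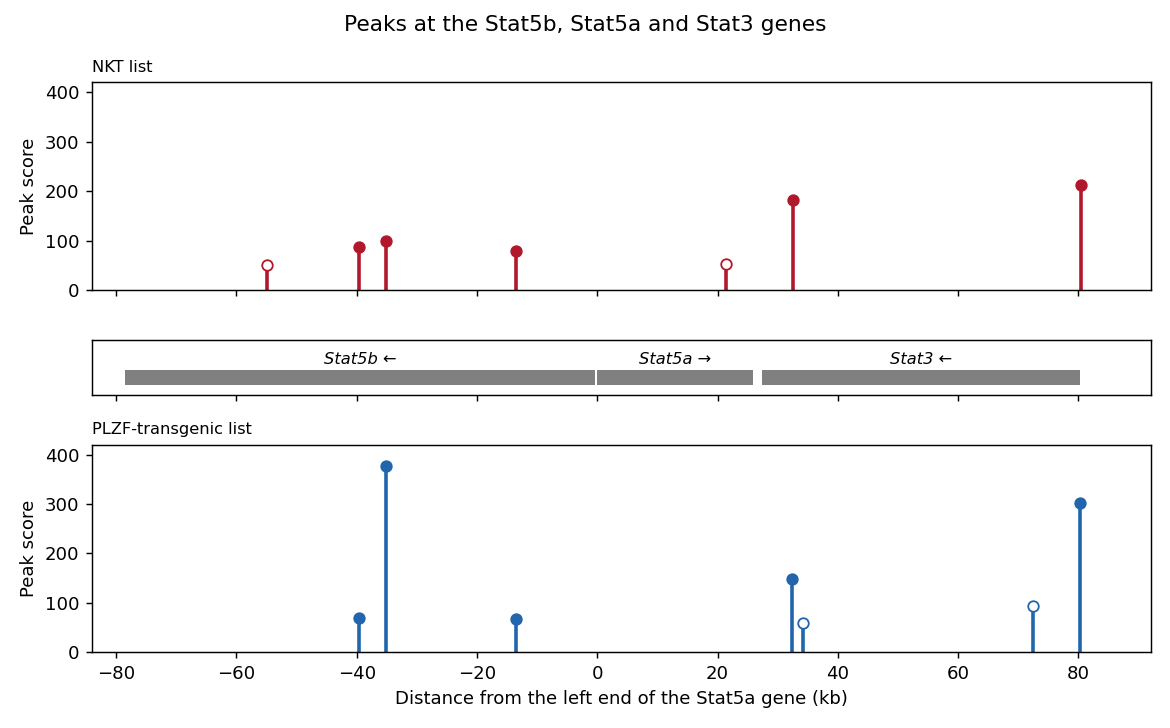
Scores of peaks along the Stat5b, Stat5a and Stat3 genes, by distance from the left end of Stat5a (kb), with the NKT list above and the PLZF-transgenic list below the gene bodies; arrows give the direction of transcription, and open circles are peaks without an overlapping peak in the other list. The tallest NKT line (211.6) stands at the Stat3 promoter and the tallest PLZF-transgenic line (376.4) inside Stat5b.

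Stat4, which encodes the STAT of IL-12 signalling, had a site that ranked high in the NKT list and low in the PLZF-transgenic list. It lies on chromosome 1 inside the gene, 3.22 kb past the more downstream of 2 annotated start sites by the NKT midpoint. Here the NKT peak (52011294 to 52011620) had a score of 139.5 at the 79.1 percentile, and the PLZF-transgenic peak (52011267 to 52011540) a score of 54.0 at the 7.45 percentile. The NKT rank was thus 71.7 percentile points above the PLZF-transgenic rank, and 11 of the 2603 overlapping pairs of the whole lists had a larger gap in this direction. The PLZF-transgenic score was near the lowest of its list (50.03), and the gap rests on 1 library per population. A second NKT peak of score 53.1 (52010993 to 52011158) lay 135 bp beside it. Near the end of Stat4 the lists shared a site with scores of 102.0 in the NKT list (52100750 to 52100998) and 115.3 in the PLZF-transgenic list (52100615 to 52100979).

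Stat6, which encodes the STAT of IL-4 signalling, had 1 peak in the NKT list and 4 in the PLZF-transgenic list within 50 kb, with 1 site in both. At its start on chromosome 10 the PLZF-transgenic list had a peak of score 293.7 (127641805 to 127642576, 86.3 percentile) and, 242 bp further on, one of score 144.5 across the start site (127642819 to 127643229). The NKT list had no peak there, and its nearest peak was 25.9 kb from the start-site peak. Of PLZF-transgenic peaks within 5 percentile points of the first, 82.5% overlapped an NKT peak, and of those within 5 points of the second, 51.3%. Another PLZF-transgenic peak without an NKT counterpart had a score of 291.8 (127674564 to 127675239, 86.2 percentile) and lay 13.9 kb past Stat6, nearer to Nemp1, which encodes a nuclear membrane protein.

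The single NKT peak of the Stat6 window was a strong one at a place of low rank in the PLZF-transgenic list. It lay 7.93 kb past Stat6 and 2.22 kb from Nab2, which encodes a co-repressor of EGR factors, so by nearest gene it belongs to Nab2. The NKT peak (127668677 to 127669162) was 486 bp wide with a score of 188.4 (86.6 percentile), and the PLZF-transgenic peak (127668699 to 127668998) was 300 bp wide with a score of 52.0 (3.80 percentile). This gap of 82.8 percentile points was exceeded in the same direction by 2 of the 2603 overlapping pairs. Here, too, the PLZF-transgenic score was near the lowest of its list (50.03). The other 8 pairs at the 9 genes had gaps between -26.8 (the strong Stat5b site) and 33.5 points (a weak Stat5b site), NKT minus PLZF-transgenic.

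**Figure D3:**
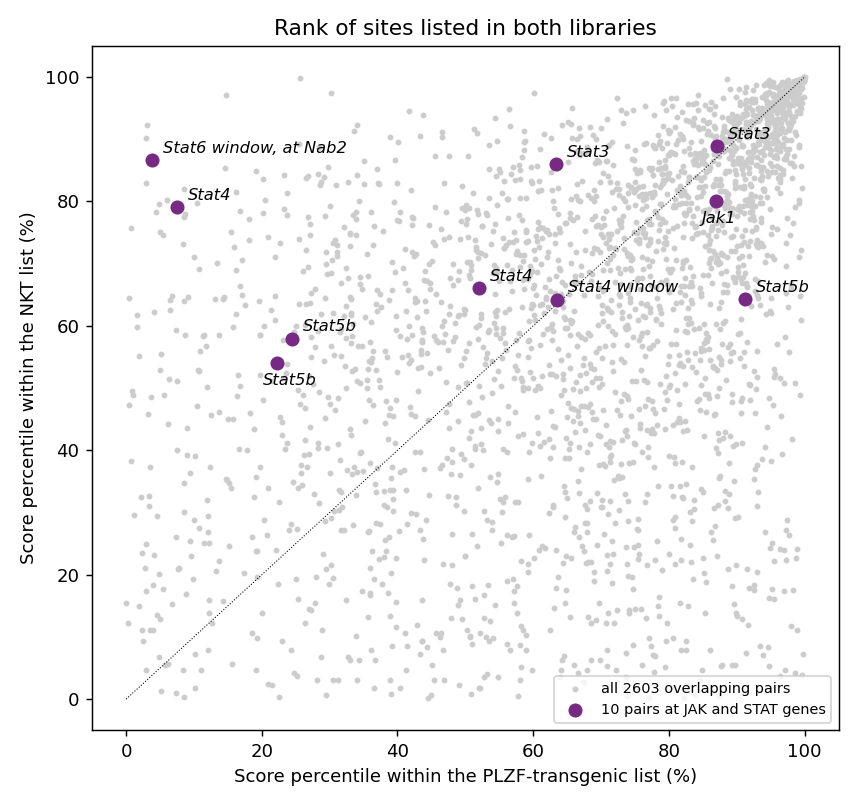
Score percentile within the NKT list (vertical axis) against that within the PLZF-transgenic list (horizontal axis) for all 2603 overlapping pairs (grey) and the 10 pairs at JAK and STAT genes (purple), with equal ranks on the dotted line; labels name the gene whose window holds the pair and, for the site beside Stat6, the nearer gene. The Stat6 window site at Nab2 (86.6 against 3.80) and a Stat4 site (79.1 against 7.45) lie far above the line, and the strong Stat5b site (64.3 against 91.2) below it.

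Over the 9 genes, 10 of 15 NKT peaks overlapped a PLZF-transgenic peak, 66.7% (exact Clopper-Pearson 95% interval 38.4 to 88.2%), against 60.7% of the whole NKT list. In the PLZF-transgenic list, 10 of 19 peaks had an overlapping NKT peak, 52.6% (28.9 to 75.6%), against 45.7% of the whole PLZF-transgenic list. The intervals cover counting error only, and both hold the share of the whole list. They treat peaks as separate draws, although 7 peaks of each list lie in the Stat5b to Stat3 cluster, so they are no test. The NKT percentile was the higher in 8 of the 10 overlapping pairs, against 42.1% of all 2603 pairs. Not all of the 8 gaps were large: that of the Stat3 promoter was 1.83 points. The pairs at Stat5b and Stat3 lie in 1 cluster, so the 10 pairs are not 10 separate regions. Width was greater for the NKT peak in 2 of 10 pairs, at the Stat4 and Nab2 sites of large rank gap, against 8.72% of all pairs. Midpoints of the 10 pairs lay a median of 45.5 bp apart (range 1 to 87 bp), against 63.5 bp over all pairs.

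Scores at the 9 genes were moderate. They ranged from 51.0 to 211.6 in the NKT list, with a median of 98.1 against 73.8 in the whole list, and 11 of 15 lay above that list's median. In the PLZF-transgenic list they ranged from 52.0 to 376.4, with a median of 115.3 against 110.8, and 11 of 19 lay above that list's median. Shared NKT peaks had a median score of 120.7 (79.2 to 211.6) and unshared ones of 53.1 (51.0 to 106.0), where the whole list had medians of 103.5 and 57.8. In the PLZF-transgenic list shared peaks had a median of 132.1 (52.0 to 376.4) and unshared ones of 113.4 (58.8 to 320.1), where the whole list had medians of 190.2 and 83.8. The highest unshared PLZF-transgenic scores were the 320.1 at Jak1 and the 293.7 and 291.8 in the Stat6 window. Midpoints within 2.5 kb of an annotated start site of any gene numbered 4 of 15 in the NKT list, against 23.6% of its peaks, and 8 of 19 in the PLZF-transgenic list, against 24.5%. For start sites of the 9 genes alone the counts were 2 in the NKT list, at Stat3 and Stat5b, and 6 in the PLZF-transgenic list, at Stat3, Stat5b, Jak2, Tyk2 and, with 2 peaks, Stat6.

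Genes that act before and after the kinases and STATs were described from 4 lists by the same rule. These lists, too, were chosen with earlier results of these data known. Of 22 cytokine receptor genes, 15 had a peak within 50 kb in the NKT list and 19 in the PLZF-transgenic list, and all 15 were among the 19. The strongest receptor site was 36.5 kb from Il6st, the gene of the gp130 chain, with a top NKT score of 1293, and the top PLZF-transgenic score in its window was 1244 at 39.3 kb. Il4ra, the IL-4 receptor chain that activates STAT6, had scores of 359.1 in the NKT and 412.7 in the PLZF-transgenic list inside the gene. The same peaks lie 46.2 and 46.3 kb from its neighbour Il21r and are the highest of the Il21r window. Ifnar1 and Ifngr2 likewise share their highest peak in each list. The highest Il15ra peaks lie nearer to Il2ra, those of Ifnar2 to Il10rb, those of Il10rb to Ifnar1 and those of Il27ra to Rfx1. Il7r had 1 peak, in the PLZF-transgenic list, 45.0 kb away and nearer to Spef2. A peak counts for every gene within 50 kb, so the counts of this list are not of separate sites. Ifngr1, an interferon gamma receptor chain, had 182.5 in the NKT and 276.7 in the PLZF-transgenic list. Csf2rb (175.4, 40.1 kb away and nearer to Tex33) and Il10ra (164.9, 22.9 kb away) were listed in the PLZF-transgenic library alone.

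Of 19 inhibitor genes, 7 had a peak in the NKT list and 10 in the PLZF-transgenic list, 6 of them in both. Pias4, which encodes a SUMO ligase that binds STATs, had top scores of 479.5 in the NKT and 364.3 in the PLZF-transgenic list, at 1.34 and 1.95 kb. Ptprc, the gene of the phosphatase CD45, had 468.7 and 844.5 in the NKT and PLZF-transgenic lists, and Socs3, a feedback inhibitor of JAK kinases, 416.9 and 653.5 at 13.6 and 13.5 kb. Ptpn6, the gene of the phosphatase SHP-1, had 103.5 in the NKT and 369.6 in the PLZF-transgenic list, at 2.58 and 2.45 kb and nearer to its neighbour Grcc10. Ptpn1 (153.4) and Ptpn11 (86.2, 23.4 kb away) were listed in the PLZF-transgenic library alone.

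Of 6 other family members and partners, 3 had a peak in the NKT list and 4 in the PLZF-transgenic list, all 3 among the 4. Sh2b1, an adaptor that binds JAK2, had scores of 141.5 in the NKT and 318.7 in the PLZF-transgenic list inside the gene. Irf9, the partner of STAT factors in the interferon-induced complex, had 134.2 inside the gene in the NKT list. In the PLZF-transgenic list it had 130.6 at 43.8 kb, nearer to Dcaf11. Stat2 had 76.2 at 42.9 kb in the NKT list, nearer to Cs, and 105.8 at 10.3 kb in the PLZF-transgenic list, nearer to Pan2. For Irf9 and Stat2 the top peaks of the lists are thus different sites. For the other genes of the related lists, overlap between the top peaks of both libraries was not checked. Stam2 (57.7) was listed in the PLZF-transgenic library alone.

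Of 19 target genes of STATs, 10 had a peak in the NKT list and 12 in the PLZF-transgenic list, all 10 among the 12. Prdm1, the gene of the repressor BLIMP1, had scores of 469.4 in the NKT and 688.5 in the PLZF-transgenic list, and Ccnd3, the gene of cyclin D3, 321.3 and 1216 in the NKT and PLZF-transgenic lists. Irf1, an interferon-induced factor, had 166.1 in the NKT and 72.8 in the PLZF-transgenic list at 6.13 and 6.10 kb. Il2ra, the alpha chain of the IL-2 receptor and a STAT5 target, had 138.5 in the NKT and 511.8 in the PLZF-transgenic list at 6.67 and 6.85 kb. Bcl2 (82.0) and Gata3 (53.2) were listed in the PLZF-transgenic library alone. Il2ra and Cish stand in 2 of the lists, with peaks in both libraries, as does Socs2, with none. The cytokine receptor list came closest to the 77.8% (NKT) and 88.9% (PLZF-transgenic) of the 9 genes, with 68.2% and 86.4%, and the inhibitor list lay closest to all genes, with 36.8% and 52.6%.

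**Figure D4:**
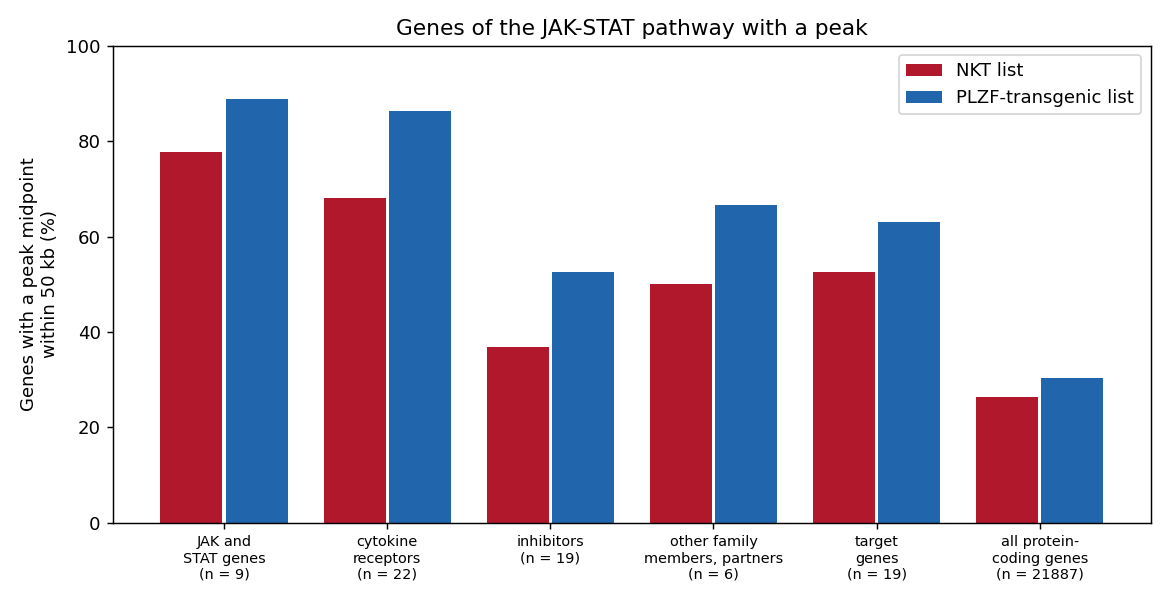
Percentage of genes with a peak midpoint in the gene body or within 50 kb of it, for the 9 JAK and STAT genes, 4 lists of related genes and all 21887 protein-coding genes, in the NKT list (red, left of each pair) and the PLZF-transgenic list (blue). Every list shown lies above the 26.3% and 30.3% of all genes, and inhibitors are the lowest of the lists at 36.8% and 52.6%. The genes and lists were chosen with earlier results of these data known, so the difference from all genes is no independent finding.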

How the data were processed

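Each streptavidin ChIP library had 1 peak list without a header. It holds each peak's coordinates, a name of the MACS style and a score, all as the authors deposited them. The meaning of the score is not stated in the file or labels. Bowtie, Picard and HOMER were used on build mm10, per the submitters' processing notes. Their versions, any pooling of reads and the use of the 2 input libraries as controls are not given in the sources used. The input libraries were not analysed here.

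Starts were raised by 1 base to 1-based coordinates. Gene bodies came from RefSeq GRCm38.p6, start sites and strands from its promoter table. A peak midpoint within 50 kb of a gene body was assigned to that gene, and to every such gene; peaks overlapping by at least 1 bp counted as shared. Counting was tested on simulated peaks. No p-value was computed, since each group had 1 library, and depth is unknown. The genes and lists were chosen with earlier results of these data known. Named beside the 9 genes were, per related list, up to 4 genes with a peak in both libraries by NKT score and up to 2 with a peak in 1, plus nearer genes of a peak. Receptor genes whose highest peak lies nearer to another gene were named as well. Of the list genes, 2 are not reported here, nor is a site at one of them, which stays in the counts. Alternatives were gene bodies alone, 10 kb flanks, nearest gene, any base in the window, the highest-scoring 50% of each list, reciprocal 50% overlap and midpoints within 1 kb. Python 3.11.15, pandas 2.3.3, numpy 2.4.6, scipy 1.17.1 and matplotlib 3.10.9 were used.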

Additional observations from a re-analysis of the deposited data

How the results depend on the processing

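The 5 counts of genes and peaks were recomputed under 5 alternatives each and the 2 shares of overlapping peaks under 4 each, 33 values in all. Of these, 32 stayed within 1.5 times, or for shares within the exact interval, of the reported value. The exception was the number of PLZF-transgenic peaks at the 9 genes, 11 in place of 19 when the highest-scoring 50% of each list was kept; fewer peaks enter by construction. Those limits are wide. Genes with a peak in both lists fell from 6 to 4 of 9 and still counted as within 1.5 times. The exact intervals of the shares run from 38.4 to 88.2% (NKT) and from 28.9 to 75.6% (PLZF-transgenic). Shares were not run with 10 kb flanks, nearest genes or any base in the window. With gene bodies alone, 5 genes had a peak in the NKT list, 6 in the PLZF-transgenic list and 4 in both. With nearest genes, the counts were 5, 7 and 4. Missing were Jak3 and Stat6 in the NKT list, whose peaks lie nearer to Fcho1 and Nab2, and Stat5a in the PLZF-transgenic list. The share of all genes by nearest gene was not computed, so the shares by the 50 kb rule do not apply to these counts. No paired analysis was possible because each group had 1 library. For the same reason no library could be left out. Unknown depth limits what a missing peak shows.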
